A study of Homo sapiens with 10 samples.

Results

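The rows described here are the glycine tRNA rows of 10 iCLIP tables: every row named for glycine, of any anticodon, without the nm or nmt prefix. They number 39 of 631 tRNA rows: 15 Gly-GCC, 12 Gly-CCC, 9 Gly-TCC, 2 Gly-CAC and 1 Gly-TTG. iCLIP recovers RNA fixed by UV light to a protein in living cells, and PUS7 is a pseudouridine synthase, an enzyme that turns uridine into pseudouridine in RNA. In 293T, a transformed human embryonic kidney line, PUS7 knockout cells were studied with FLAG-tagged PUS7 added back, in 3 libraries, and with nothing added, in another 3. The embryonic stem cells, of the human line H9, gave 2 libraries for each condition. All 4 groups thus share the knockout of the cells' own PUS7, and anti-FLAG pull-down was done on each after irradiation at 254 nm and 200 mJ/cm2. The knockout libraries serve as mock controls. Whether each knockout line is 1 clone, and how the tagged PUS7 was driven, was not given in the sources used here.

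Glycine tRNA brings glycine to the ribosome. PUS7 recognises short uridine-containing stretches of RNA by itself, without a guide RNA, and pseudouridine in the D arm of several tRNAs is known to come from enzymes of its family. Of the glycine anticodons, GCC, CCC and TCC read glycine codons in the standard genetic code. CAC pairs with a valine codon and TTG with a glutamine codon, so those 3 rows bear a glycine name with an anticodon of another amino acid. Fragments from the start of glycine tRNAs, above all of Gly-GCC, are among the well-known small RNAs cut from tRNA. The sequences of the glycine tRNAs were not analysed here.

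In the names of these rows the first number stands for a mature sequence and the second for a gene copy of it. The 31 numbered rows therefore stand for 16 sequences, and 19 of them belong to 4 sequences with several copies: GCC-2 and TCC-2 with 6 copies each, GCC-1 with 5 and CCC-2 with 2. Reads from such copies cannot be told apart by mature sequence, so copies are not independent of each other. The other 8 rows are named by chromosome. By symbol, 27 rows matched a tRNA gene and 1 row a pseudogene, TRG-CCC7-1, in the RefSeq table of GRCh38.p14, whereas 11 rows had no match. The name CCC6-1 is both the symbol of a tRNA gene and an older name of a pseudogene, so that match is uncertain.

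The deposited values are level numbers, the order in which text values sort, and not read counts. Each row was therefore read as detected in a library, with at least 1 read, or not detected, and sequencing depth is unknown. The first H9 knockout table held 1 level per text width and no detected tRNA row at all. It serves to find the width classes of the rows, from 1 for the narrowest text to 4, and its 0 detected rows follow from that reading. The differences between FLAG-PUS7 and knockout are given with and without it. Over all 631 rows, FLAG-PUS7 libraries detected 458 to 479 rows and the 4 knockout libraries with any tRNA row 133 to 232.

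The main comparison asked which glycine tRNAs were recovered through FLAG-PUS7 beyond the mock pull-down. Nearly every glycine row was present with FLAG-PUS7 in both lines, and the anticodons differed in how many rows the knockout libraries also held. The 293T FLAG-PUS7 libraries detected 33, 33 and 34 of the 39 rows, and the H9 FLAG-PUS7 libraries 34 and 33. The 293T knockout libraries detected 24, 16 and 16 rows, and the H9 knockout libraries 0 and 21. Every FLAG-PUS7 library lay above every knockout library. As a share of rows this was 85.5% ± 1.48 (SD, n = 3) against 47.9% ± 11.8 (SD, n = 3) in 293T. The difference was 37.6 percentage points in 293T and 59.0 in H9, or 32.1 in H9 without the first knockout library. For the 592 other rows the differences were 48.3, 56.8 and 39.0 points in the same order.

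**Figure D1:**
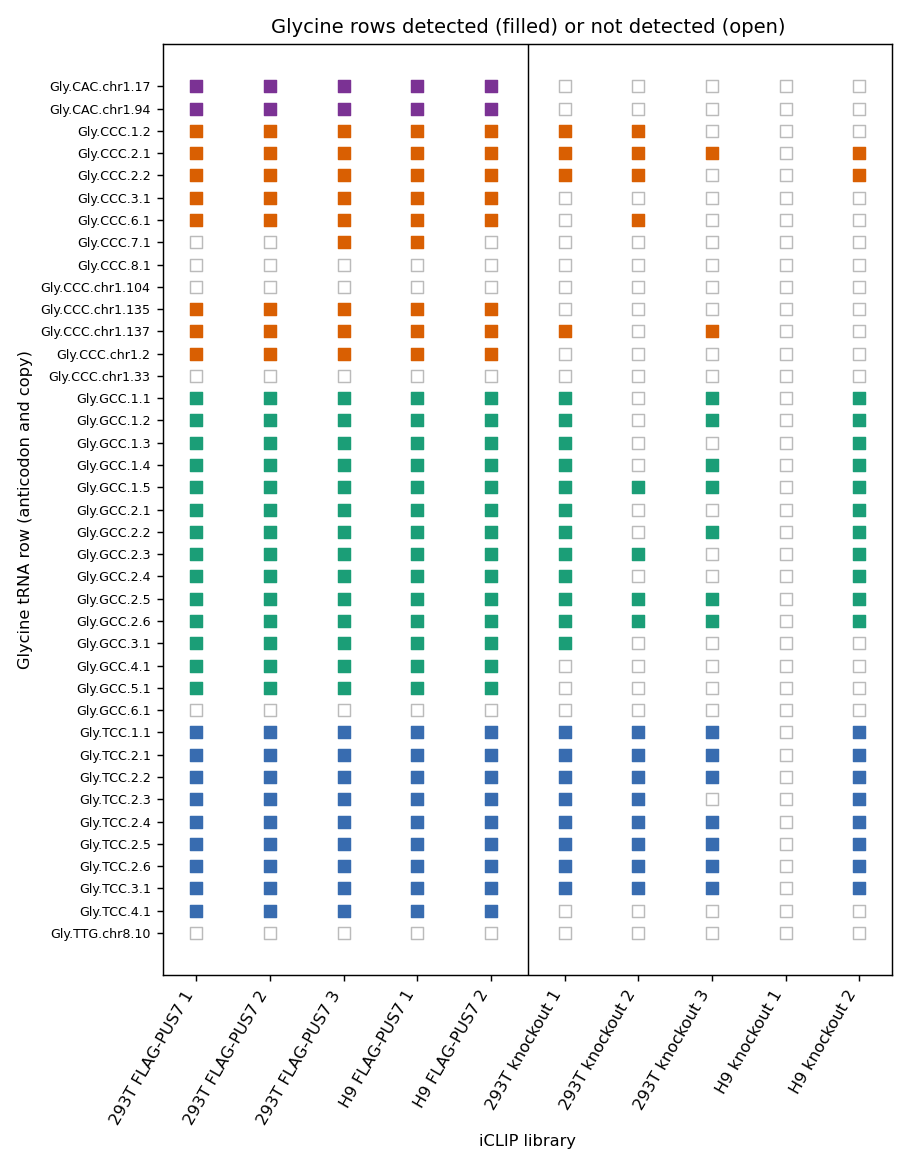
Detection of each of the 39 glycine rows (vertical axis, by anticodon and copy) in the 10 libraries (horizontal axis); a filled square is a detected row, an open square a row not detected, and colours mark the anticodon. The FLAG-PUS7 libraries on the left are almost filled, with 33 or 34 rows each, while the knockout libraries on the right hold 0 to 24 rows, mostly of Gly-GCC and Gly-TCC.

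Copy by copy, 33 glycine rows were in all 5 FLAG-PUS7 libraries, 1 was in some of them and 5 were in no library. The row in some was the pseudogene TRG-CCC7-1 (chromosome 2, 11551701 to 11551772), detected in the third 293T and the first H9 FLAG-PUS7 library and in no knockout library. The 5 rows in no library were Gly-CCC 8-1, 2 chr-named Gly-CCC rows, Gly-GCC 6-1 and the Gly-TTG row. Each FLAG-PUS7 library held all 27 glycine rows that have a RefSeq tRNA gene, beside 97.1% to 97.8% of the 408 such rows of all tRNAs. In the 293T knockout libraries 23, 16 and 15 of the 27 were found, and in the second H9 knockout library 21. As shares these were 85.2%, 59.3%, 55.6% and 77.8%, beside 54.2%, 32.6%, 30.4% and 53.4% of the 408. Over both lines FLAG-PUS7 exceeded knockout by 47.2 points for the 27 rows and by 64.5 points for the 408. Leaving out the H9 knockout table that held no detected tRNA row lowered these values to 27.8 and 51.2 points.

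A group of 8 rows was found in each FLAG-PUS7 library but never in the knockout. The 8 rows are 23.5% of the 34 glycine rows detected anywhere, beside 25% of the 513 detected rows of all tRNAs. Over all rows glycine thus lay near the background, but its share was lower among rows matched to a RefSeq tRNA gene. There the group held 3 of 27 detected glycine rows, 11.1%, beside 105 of 406 of all tRNAs, 25.9%. Of these 27 rows, 19 belong to 4 sequences with several copies. Width class 3 held 11 of them and class 4 held 13, beside 156 and 84 of all 408 matched rows. By class, matched or not, the group held 4 of 5 detected glycine rows in class 1, beside 38 of 126 others. In class 2 this was 3 of 4, beside 63 of 125. In class 3 it was 1 of 12, beside 17 of 154. In class 4 it was 0 of 13, beside 2 of 73. Whether the lower share goes beyond width class and shared sequence was not tested. Of the 5 detected chr-named glycine rows the group of 8 held 4. The same share over the chr-named rows of all tRNAs is not given here, so this count does not set glycine apart. The group holds 3 RefSeq genes: TRG-CCC3-1 (chromosome 17, 19860862 to 19860932, overlapping the span of the protein-coding gene ULK2), TRG-GCC4-1 (chromosome 1, 161480566 to 161480636) and TRG-TCC4-1 (chromosome 1, 161440171 to 161440242). The others were Gly-GCC 5-1, both Gly-CAC rows and 2 chr-named Gly-CCC rows. Tested row by row over all 513 rows, 0 glycine rows passed (exact two-sided permutation test with Benjamini-Hochberg adjustment, lowest adjusted p = 0.0668), beside 0% of all rows. The rows with an unadjusted p under 0.05 were these 8 and, over all tRNAs, the same 25% as above. Detection in all against none fixes that p, so it restates the choice of rows.

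At the other end, 11 glycine rows were in each of the 4 knockout libraries that held any tRNA row. This is 32.4% of the detected glycine rows, beside 13.8% of all detected rows. Of these, 7 were Gly-TCC rows: TRG-TCC1-1, TRG-TCC3-1 and the TCC-2 copies except TRG-TCC2-3, which the third 293T knockout library lacked. Gly-GCC gave TRG-GCC1-5 (chromosome 21, 17454789 to 17454859), TRG-GCC2-5 and TRG-GCC2-6, and Gly-CCC gave TRG-CCC2-1 (chromosome 2, 70248991 to 70249061). The remaining 14 detected rows were in some knockout libraries and not in others. The share of rows in each of the 4 libraries was also read by width class. In class 4 it was 61.5% of 13 glycine rows, beside 53.4% of 73 others. In class 3 it was 25% of 12, beside 12.3% of 154 others. In classes 1 and 2 it was 0% of the detected glycine rows, beside 0% and 0.8% of others. Class 4 held 13 of 39 glycine rows, beside 86 of all 631 rows. Several of the 11 rows are also copies of 1 sequence.

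Gly-CAC was the glycine anticodon whose detection, as read here, separated the groups in full. Both rows, each named by its place on chromosome 1, were detected by each of the 5 FLAG-PUS7 libraries and by 0 of the 5 knockout libraries. The difference was 100 points (exact two-sided permutation test over 120 assignments within lines, adjusted over 57 anticodon families, p = 0.0221). Pro-CGG, Ser-ACT and Sup-TTA were at 100 points as well, and the median difference of the 57 families was 52.5 points. Neither Gly-CAC row matched a RefSeq gene. With rows at the most frequent level of their width class read as not detected, the Gly-CAC difference was 91.7 points (exact permutation test, adjusted p = 0.0220).

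Gly-CCC, with 12 rows, had the lowest share detected with FLAG-PUS7 among the 4 anticodons detected at all. The 293T FLAG-PUS7 libraries held 8, 8 and 9 of its rows and the H9 FLAG-PUS7 libraries 9 and 8. The 293T knockout libraries held 4, 4 and 2, and the H9 knockout libraries 0 and 2. No knockout library reached the lowest FLAG-PUS7 library. The difference was 52.1 points (exact permutation test, adjusted p = 0.0221). It was 47.9 points with the first H9 knockout library left out. Its copies ranged from TRG-CCC2-1, in 4 knockout libraries, over TRG-CCC2-2 in 3 and TRG-CCC1-2 in 2, to TRG-CCC3-1 in 0.

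Gly-GCC, with 15 rows, was detected in the same 14 rows by all FLAG-PUS7 libraries, while its knockout libraries were uneven. The 293T knockout libraries held 12, 4 and 7 rows, and the H9 knockout libraries 0 and 11. In the second 293T knockout library only 1 of the 5 GCC-1 copies and 3 of the 6 GCC-2 copies were found, whereas the first 293T and second H9 knockout libraries found all 11. The difference was 49.4 points (exact permutation test, adjusted p = 0.0221). It was 31.1 points without the first H9 knockout library.

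Gly-TCC, with 9 rows, was detected in full by every FLAG-PUS7 library and had the smallest difference of the 4 detected anticodons. The 293T knockout libraries held 8, 8 and 7 of its rows, and the H9 knockout libraries 0 and 8. TRG-TCC4-1 was the row missing from all of them. The difference was 35.2 points (exact permutation test, adjusted p = 0.0221), which ranked 46 of 57 families. The first H9 knockout library left out, 13.0 points remained (exact permutation test, adjusted p = 0.0232). The second left out, the difference was 57.4 points. Within 293T it was 14.8 points. Within H9 the differences of Gly-CCC, Gly-GCC and Gly-TCC were 62.5, 56.7 and 55.6 points with both knockout libraries, but 54.2, 20 and 11.1 points with the second alone.

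All 4 detected glycine families thus passed, beside 78.9% of the 57 families tested, and none was lower, beside 0%. That share of passing families is so high that passing does not set glycine apart. The smallest p the test can give is 0.0167, and all 4 families had it. Neither line can pass alone, since the smallest p is 0.1 in 293T and 0.333 in H9. With the first or the second FLAG-PUS7 library of H9 left out, Gly-GCC no longer passed (exact permutation test, adjusted p = 0.123 and 0.132). Gly-TCC did not pass either in these settings (exact permutation test, adjusted p = 0.384 for both). Asp, Glu, Gln and His tRNAs are further isotypes known for PUS7-type pseudouridine by the D arm. Of their 7 families, all with a difference above 0, 5 passed as higher with FLAG-PUS7 and 0 as lower. This share is near the 78.9% of all families. Glu-CTC and Glu-GAA did not pass, at 27.5 and 37.5 points. Leaving out the first H9 knockout library took Glu-CTC to 7.5, Asp-GTC from 31.2 to 9.38 and His-GTG from 49.2 to 26.7 points, and left Glu-GAA at 37.5. Over the same step Glu-TTC went from 46.6 to 33.3, Gln-CTG from 39.2 to 28.8 and Gln-TTG from 43.8 to 28.1 points.

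**Figure D2:**
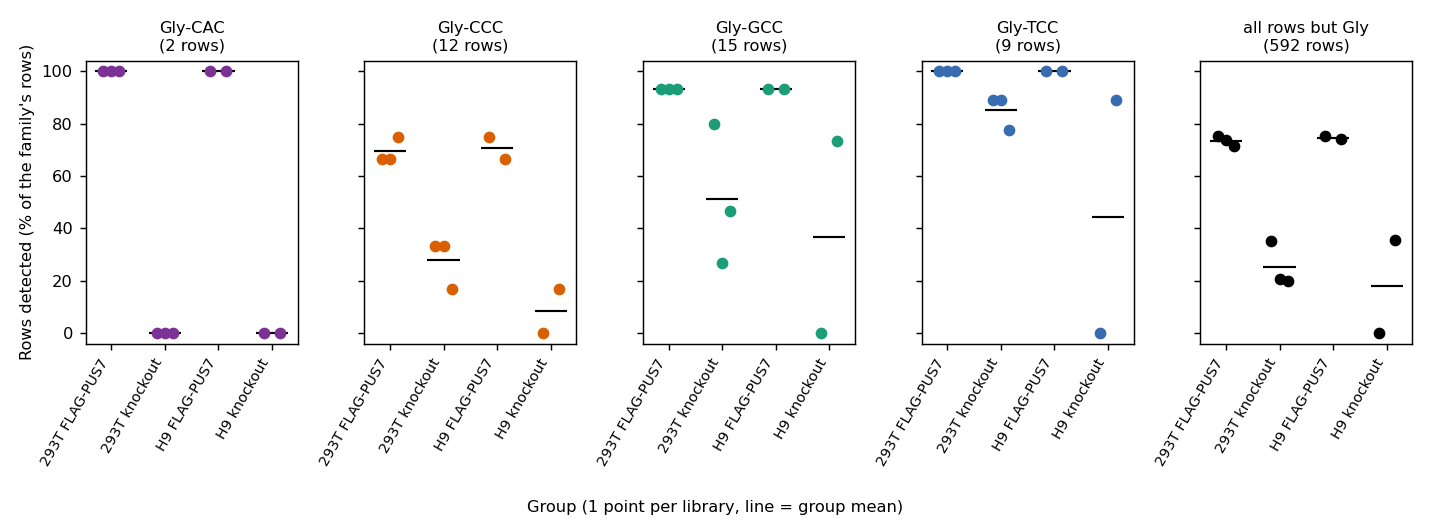
Share of rows detected (vertical axis, percent of the family's rows) in each library, by group (horizontal axis), for 4 glycine anticodons and for the 592 rows of other tRNAs; each point is 1 library and each line a group mean. The knockout points lie at 0% for Gly-CAC and between 77.8% and 88.9% for Gly-TCC, apart from the first H9 knockout library at 0%.

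**Figure D3:**
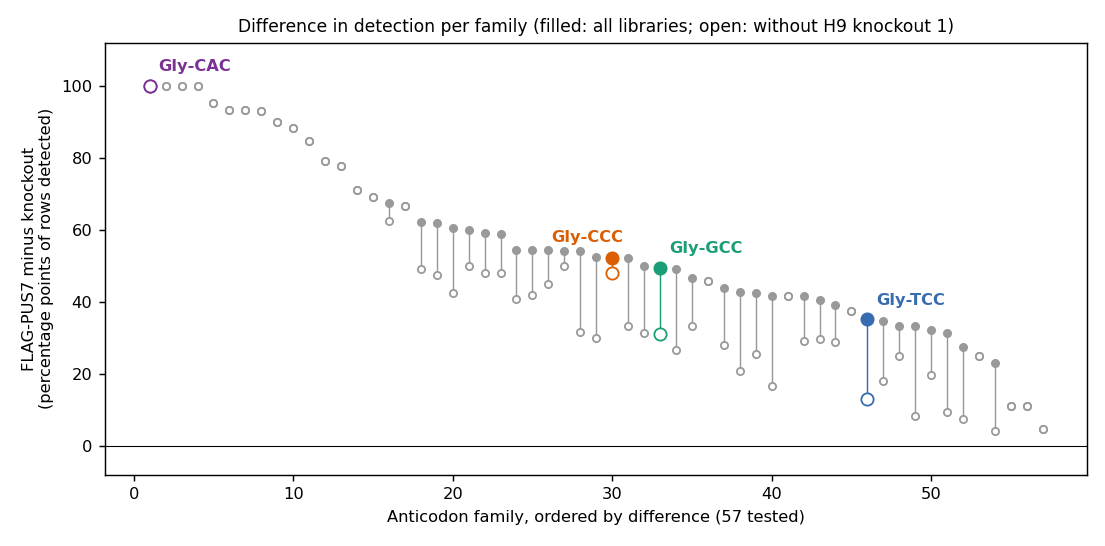
Difference in detection, FLAG-PUS7 minus knockout, in percentage points (vertical axis) for the 57 anticodon families with a detected row, ordered by size (horizontal axis); filled points use all libraries and open points leave out the first H9 knockout library. Gly-CAC stays at 100 points, Gly-CCC moves from 52.1 to 47.9, Gly-GCC from 49.4 to 31.1 and Gly-TCC from 35.2 to 13.0.

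The anticodons were then tested against each other, in 6 pairs. With all libraries, 0 pairs passed (exact permutation test adjusted over the 6 pairs). The difference of Gly-CAC exceeded that of Gly-CCC by 47.9 points and that of Gly-GCC by 50.6 points, each at an adjusted p of 0.05, not under the threshold, with an unadjusted exact permutation p of 0.0167. Against Gly-TCC the excess was 64.8 points (adjusted exact permutation p = 0.10). Without the first H9 knockout library 5 of the 6 pairs passed, each at an adjusted exact permutation p of 0.02. The H9 knockout is then a single library, with no spread of its own, and leaving out any other library let 0 pairs pass. In this setting Gly-TCC differed less than Gly-CAC by 87.0 points, less than Gly-CCC by 35.0 points and less than Gly-GCC by 18.1 points. Gly-CCC minus Gly-GCC did not pass with that library (2.64 points, adjusted exact permutation p = 0.90), nor when it was left out (16.8 points, adjusted exact permutation p = 0.283).

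Counting each mature sequence once, and detected where any of its copies was, gave 13 or 14 of the 16 numbered sequences with FLAG-PUS7. The 293T knockout libraries held 8, 8 and 6 of them and the second H9 knockout library 6. Of the 16 sequences, 4 were found throughout FLAG-PUS7 and never in the knockout: CCC-3, GCC-4, GCC-5 and TCC-4, each with a single copy. The 6 sequences in every knockout library with tRNA rows were CCC-2, GCC-1, GCC-2, TCC-1, TCC-2 and TCC-3, among them all 4 sequences with several copies. Since any copy suffices, a sequence with several copies has more chances to count, so this does not set these 4 apart. In the second 293T knockout library GCC-1 counted through 1 of its 5 copies. The same counts over the sequences of all tRNAs are not given here.

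Detection in the knockout moved with the width class of a row, which was read from the first H9 knockout table. Of the 10 glycine rows in class 1, the narrowest, 4 were in all FLAG-PUS7 libraries and none of these in a knockout library. Class 2 held 4 glycine rows, 3 of them without knockout detection, and class 3 held 12 with 1 such row. Class 4 held 13 glycine rows, 8 of Gly-TCC and 5 of Gly-GCC, and 0 such rows. All glycine rows of classes 2 to 4 were detected. In rows of other tRNAs, the same count was 38 of 126 detected rows in class 1 and 63 of 125 in class 2. It was 17 of 154 in class 3 and 2 of 73 in class 4. Of the Gly-CAC rows, 1 was in class 1 and 1 in class 2. Class 4 held 8 of 9 Gly-TCC, 5 of 15 Gly-GCC and 0 of 12 Gly-CCC rows. In class 4 the 4 knockout libraries with tRNA rows detected 69.2% to 100% of the glycine rows and 65.8% to 95.9% of the others. In the simulated tables on which this reading was checked, the width of a row's text was set by its largest count. Whether width follows read abundance in the deposited values was not tested. The part that text width has in the order of the anticodons was not tested either.

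**Figure D4:**
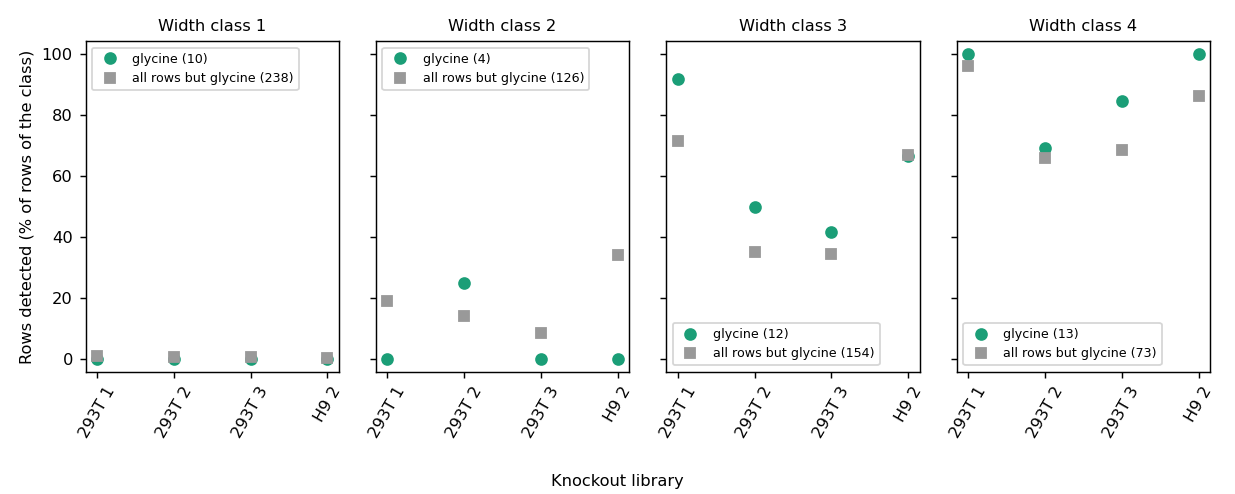
Share of rows detected (vertical axis, percent of the rows of a class) in the 4 knockout libraries with any tRNA row (horizontal axis), in 1 panel per width class, for glycine rows (circles) and all other rows (squares), with the number of rows in the key. Detection is 0% for glycine in class 1 and 69.2% to 100% in class 4, and the other rows climb from at most 1.26% to between 65.8% and 95.9%.

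Copies of 1 mature sequence sat at neighbouring levels in the FLAG-PUS7 tables. The 6 TCC-2 copies spanned 7, 10 and 12 levels of 353, 340 and 335 in 293T, and 10 and 8 levels of 412 and 414 in H9. The 6 GCC-2 copies spanned 10 to 15 levels, or 2.42% to 4.48% of the levels of a table. The 5 GCC-1 copies spanned 8 to 22 levels. The 2 copies of CCC-2 spanned 6 to 33 levels, up to 9.35% of the table. Levels follow the alphabetical order of the texts, so near levels mean texts that start alike and give no amount.

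Setting stem cells against kidney cells asked whether the recovery of glycine tRNAs differed by line. With FLAG-PUS7, TRG-CCC7-1 was the only glycine row whose detection varied among the 5 libraries, and it varied within both lines. The H9 minus 293T difference in effect was 0 points for Gly-CAC, 20.8 for Gly-CCC, 14.4 for Gly-GCC and 40.7 for Gly-TCC. None passed (exact two-sided permutation of line labels, 100 assignments, adjusted p = 1 for all 4 families), beside 0% of all families. The lowest unadjusted p among these was 0.23, for Gly-CCC. Without the first H9 knockout library Gly-CCC was at 12.5 points, Gly-GCC at -22.2 points and Gly-TCC at -3.70 points, so that the direction of Gly-GCC and Gly-TCC rested on it. Line by line, 8 of the 34 detected glycine rows were in all 293T FLAG-PUS7 and no 293T knockout library. Over all tRNAs this was 177 of 513 detected rows, 34.5%. In H9 the same count was 12 of 34, beside 224 of 513, 43.7%, with both knockout libraries or with the second alone. The 293T count asks for absence from 3 knockout libraries with tRNA rows and the H9 count from 1, so the 2 lines are not compared alike. In knockout cells, the 21 glycine rows of the second H9 library were all in at least 1 293T knockout library. A further 4 rows, which were picked with their values known, were in a 293T but in no H9 knockout library: TRG-CCC1-2, TRG-CCC6-1, a chr-named Gly-CCC row and TRG-GCC3-1. Here too 3 293T knockout libraries with tRNA rows stand against 1 of H9. The same counts over all tRNAs are not given here, so these rows do not set the lines apart.

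Peak lists gave a second readout, a position and a signal on the genome, for the 5 FLAG-PUS7 libraries. No peak list of a knockout library was analysed here, the sources used here do not give the program that called the peaks, and the signal is the authors' and not scaled for depth. By their names the lists exclude tRNA, yet 12 of the 30 glycine tRNA genes in RefSeq overlapped a peak by at least 1 base in at least 1 list. By list this was 7, 5 and 3 genes in 293T and 11 and 5 in H9. The shares of 23.3%, 16.7% and 10% in 293T and 36.7% and 16.7% in H9 stood beside 11.3%, 9.26%, 4.06%, 25.7% and 12.4% of all 443 RefSeq tRNA genes. The median signal at glycine genes was 68, 119 and 233 in 293T, against 18, 28 and 47 over all tRNA genes with a peak. In H9 it was 10.5 and 40, against 8 and 12. As the glycine peaks are few, these values are a description without a test.

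By anticodon, peaks lay at 6 of 8 Gly-CCC genes, 3 of 13 Gly-GCC genes and 3 of 9 Gly-TCC genes. The 3 genes with a peak in all 5 lists, TRG-CCC2-2, TRG-CCC2-1 and TRG-CCC1-1, were all Gly-CCC genes. By name, TRG-CCC2-2 and TRG-CCC2-1 are copies of 1 mature sequence. Counts of genes with a peak in any list or in all lists are not given here for all tRNA genes.

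TRG-CCC2-2 (chromosome 16, 636736 to 636806, overlapping the span of the pseudogene LOC102723945) carried the highest glycine peak of every list. The 293T signals were 785, 608 and 472 and those of H9 358 and 145, which ranked 2, 3, 2, 2 and 7 in the lists. The peak, on the minus strand, shared 65 of the gene's 71 bases. Beside these signals a second value of the same peak, deposited as a natural log and taken here as the log of the value plus 1, was 5, 8 and 4 for the 293T lists and 5 and 17 for those of H9. TRG-CCC2-1, which by its name has the same mature sequence, followed with 388.5, 315 and 233 in 293T and 218.5 and 90.5 in H9. Both genes are also rows detected in mock pull-downs, TRG-CCC2-1 in all 4 knockout libraries with tRNA rows and TRG-CCC2-2 in 3 of them. The sources used here do not say what the second value counts.

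TRG-CCC1-1 (chromosome 1, 16545939 to 16546009) had signals of 68, 119 and 27 in 293T, then 32 and 40 in H9. Its peak shared 62 of 71 bases. No row of this name was analysed here. TRG-TCC2-6 (chromosome 1, 161531113 to 161531184) was the Gly-TCC gene with most peaks, at 74 and 103 in the first and second 293T lists, none in the third, and 58.5 and 27 in H9. TRG-GCC1-5 on chromosome 21 had 27 and 15 in the same 293T lists and 10.5 and 6 in H9. Its peaks shared 12 of the gene's 71 bases, so they lay mainly beside it. The other 7 genes had a peak in 1 or 2 lists at a signal of at most 16.5, and 5 of them only in H9, in the first H9 list of 1605 peaks.

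**Figure D5:**
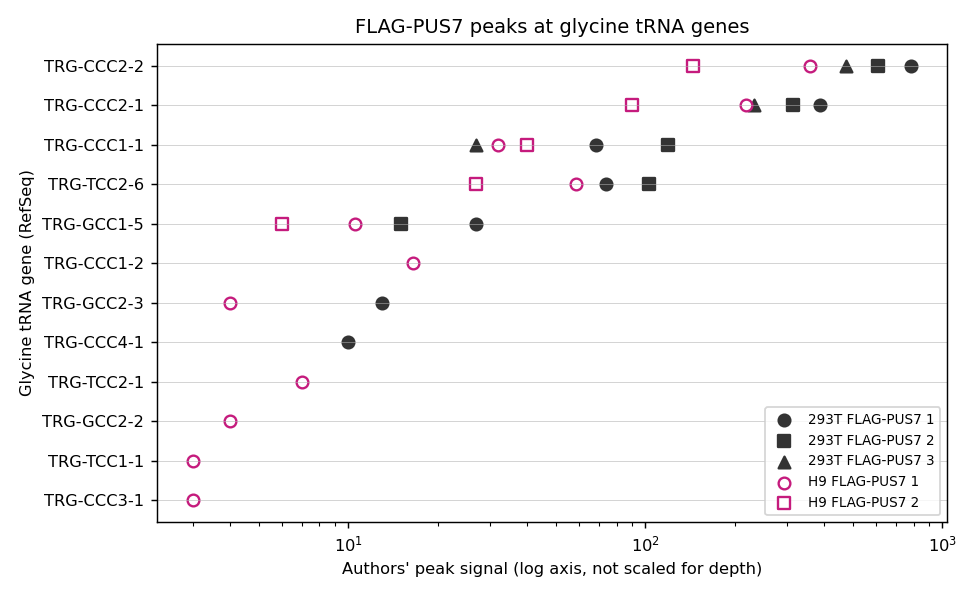
Authors' peak signal (horizontal log axis, not scaled for depth) at the 12 glycine tRNA genes with a peak (vertical axis, ordered by highest signal); filled black symbols are the 3 293T lists and open symbols the 2 H9 lists. TRG-CCC2-2 and TRG-CCC2-1 lie at 90.5 to 785, above the other genes of the same list.

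By position, 12 of the 30 glycine genes lie within 91.0 kb on chromosome 1 (161440171 to 161531184), 6 of Gly-TCC and 6 of Gly-GCC. All 12 are rows detected in every FLAG-PUS7 library, but only TRG-TCC2-6, at the end of this run, had a peak in any list. TRG-GCC4-1 and TRG-TCC4-1, the rows with no knockout detection, lie in the same run as GCC-1 and TCC-2 copies that the knockout libraries held. Elsewhere, TRG-GCC3-1, TRG-GCC2-4 and TRG-GCC2-5 overlap the span of the protein-coding gene VAC14 on chromosome 16 and had no peak. In total 11 of the 30 genes overlap the span of another RefSeq gene, and whether they fall in its exons or introns was not analysed here.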

How the data were processed

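Per the labels, iCLIP libraries were sequenced on a MiSeq for 50 cycles. The submitters' processing notes list Bowtie, SAMtools, bedtools and the build hg38, with no role given. The tRNA tables the authors deposited hold level numbers (a score), not counts. Rows above the lowest run of levels of their library, walked in order of width class, were read as detected. The peak lists the authors deposited hold a signal, a p-value and the natural log of a second value per peak. Peaks were matched to RefSeq genes of GRCh38.p14 by at least 1 shared base, and positions are 1-based.

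Shares of rows detected per anticodon family were compared by exact permutation within lines, with lines weighted equally and Benjamini-Hochberg adjustment at 0.05 (Python 3.11, NumPy 2.4.6, pandas 2.3.3), after tests on simulated data. No p is given for all glycine rows together. Replicate numbers were not used as a block in the main tests. Correlations of same-numbered deviations were -0.127, -0.0472 and 0.0140 in 293T and 0.164 in H9. The best match had the same number for the third 293T and both H9 replicates, and not for the first and second 293T replicates. With 2 libraries per group the H9 deviations mirror each other and give a single value. So few libraries cannot show whether the numbers pair them. Labels do not say whether replicates were separate cultures, so p-values measure the spread between these samples. Glycine rows, families and lists were chosen with earlier results of these data known. Named rows are all anticodon families, rows in all FLAG-PUS7 and no knockout library, rows in every knockout library with tRNA rows, rows in no library, and genes with a peak in all lists of a line. Motif searches were not run, since tRNA sequences were not analysed here.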

Additional observations from a re-analysis of the deposited data

How the results depend on the processing

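The 4 glycine family differences stayed above 0 in every alternative that gave a value. With rows at the most frequent level of their width class read as not detected, 4 families passed. The values were 91.7, 50.7, 49.4 and 35.2 points for Gly-CAC, Gly-CCC, Gly-GCC and Gly-TCC. The 3 pair contrasts of Gly-CAC then had an adjusted exact permutation p of 0.133 each. With rows matched to a RefSeq tRNA gene alone, Gly-CAC has no row, and 3 families passed, at 63.3, 49.4 and 35.2 points for Gly-CCC, Gly-GCC and Gly-TCC. With the replicate number as a block, the values were 100, 52.1, 49.4 and 35.2 points for Gly-CAC, Gly-CCC, Gly-GCC and Gly-TCC. Their adjusted exact permutation p was 0.0810 each, and 0 families passed. The smallest p of the block is 0.0625, so it could not pass, and the row test called 0 glycine rows with it as well. Within 293T alone 0 families passed, at 100, 41.7, 42.2 and 14.8 points, and within H9 alone 0 passed, at 100, 62.5, 56.7 and 55.6 points. With the second H9 knockout library alone, the H9 values were 100, 54.2, 20 and 11.1 points. Leaving out 1 library at a time left 2 to 4 families called. Gly-GCC ranged from 31.1 to 67.8 points, Gly-TCC from 13.0 to 57.4 and the share of all glycine rows from 34.8 to 61.8. The pair contrasts then ranged from 43.8 to 52.1 points for Gly-CAC minus Gly-CCC, 32.2 to 68.9 for Gly-CAC minus Gly-GCC and 42.6 to 87.0 for Gly-CAC minus Gly-TCC. They ranged from -11.5 to 16.8 for Gly-CCC minus Gly-GCC, -1.16 to 35.0 for Gly-CCC minus Gly-TCC and 7.22 to 20.6 for Gly-GCC minus Gly-TCC. The difference between lines ranged from -22.2 to 51.1 for Gly-GCC and from -3.70 to 85.2 for Gly-TCC. Counting copies of a sequence once, an alternative chosen after seeing the data, turned Gly-CCC minus Gly-GCC to -2.53 points, or 3.54 without the first H9 knockout library, and kept 4 families called (adjusted exact permutation p = 0.0226). Requiring a peak to hold the whole gene left 4, 2 and 1 glycine genes in 293T and 7 and 2 in H9. An authors' p under 0.001 left 5 in the first H9 list. The cause of these changes was not tested, apart from the smaller number of assignments within lines and under the block.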
